A study of Mus musculus with 2 samples.

Results

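The histone genes of the mouse were examined in RNA of 2 samples, a neurosphere and a sample labelled VZ/SVZ, the ventricular-subventricular zone, each hybridised to 1 one-colour array. A gene belonged to the set when its name on the array began with Hist1h to Hist4h, H2afv, H2afy, H2afz, H3f3 or H1f. This rule took 67 of the 37008 genes named on the array, 56 of them replication-dependent and 11 of them variants, read by 88 of 56605 probes. H2afx is outside the rule. The VZ/SVZ is the germinal layer along the brain ventricles, and a neurosphere is a floating cluster grown from neural stem and progenitor cells. Both samples were brain samples of C57BL/6 mice, 6 months old, described as heterozygous for Ecrg4 and beta-gal positive, so that the allele was carried on both sides of the comparison. The growth protocol lists DMEM/F12 medium with bFGF, EGF and heparin for the cells of both samples. Whether the VZ/SVZ sample was cultured before RNA extraction is unclear. The sources used here do not state how many animals stand behind each sample or how beta-gal positive cells were obtained.

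Histones are the proteins around which DNA is wound. The core histones H2A, H2B, H3 and H4 form the nucleosome, and the linker histone H1 sits on the DNA between nucleosomes. Replication-dependent histone genes lie in clusters, are transcribed in S phase and give mRNAs that end in a conserved stem-loop in place of a poly(A) tail. The stem-loop is bound by the stem-loop binding protein SLBP, and some of these genes can also give longer, polyadenylated transcripts that read past it. Variant histones such as H2A.Z, H3.3, macroH2A and H1.0 come from genes outside these clusters with polyadenylated mRNAs and can be made outside S phase. Per the labels, RNA was amplified from total RNA with a low-input linear amplification kit, and kits of this type prime at poly(A) stretches. How strongly that step represents a histone mRNA without a tail is not known from these data.

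Many histone genes code for nearly the same protein, so the probes are shown first to let a reader see how alike they are. The 4 probes below cover the end of the coding sequence of 4 H2A genes, with capitals at the bases that differ from the Hist1h2ak probe.
Hist1h2ak: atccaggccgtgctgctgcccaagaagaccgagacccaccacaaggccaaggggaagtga
Hist1h2af: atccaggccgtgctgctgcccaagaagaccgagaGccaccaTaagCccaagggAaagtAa
Hist1h2an: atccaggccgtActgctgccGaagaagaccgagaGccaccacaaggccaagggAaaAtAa
Hist2h2aa2: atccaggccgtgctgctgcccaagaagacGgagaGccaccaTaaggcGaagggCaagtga
The other 3 probes differed from that of Hist1h2ak at 5, 6 and 5 of 60 bases, in the order shown. Of 3828 pairs of histone probes, 30 pairs were at least 80% identical over an overlap of at least 30 bases, and 18 probes stood in such a pair. None of the 30 pairs joined probes of different histone classes. The array's own annotation listed 2 or more RefSeq genes for 18 of the 68 replication-dependent probes. A value given here under the name of 1 gene can therefore hold signal from close relatives of the same class, and genes whose probes are alike are not independent of each other.

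Each value is the scanner's processed signal, an intensity after background subtraction. A difference is the log2 signal in VZ/SVZ minus that in the neurosphere, after each array was set to its own 75th percentile, so values below 0 are higher in the neurosphere. The number after ± is the technical error of the scanner's error model, with a median of 0.21 over probes bright on both arrays. There was 1 array per sample and no replicate, so no test was made, and a gene is said to be higher when its difference reached 2-fold. The number of arrays limits the precision, and the technical error leaves out how animals and cultures vary. A gene not well above background on 1 array has a bound, written "at least", which sets the bright level against the lowest level well above background on the dim array, or against the gene's own dim level where that was higher. These bounds hold for the processed signal. With normexp, an alternative that fits the background on all spots, those of Hist1h2bq, Hist1h3g, Asf1a and Lsm11 shrank to the values given beside them. The lowest signals well above background were 5.2 for the neurosphere and 5.93 for VZ/SVZ, and the scanner software called 61.2% and 66.2% of all probes well above background. The call is made per spot, so a few histone probes above those signals did not pass it. No histone spot was saturated.

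Replication-dependent histone genes were mostly higher in the neurosphere. Of 47 such genes measured, 33 reached 2-fold towards the neurosphere, 5 reached it towards VZ/SVZ and 9 lay within 2-fold. Among the 26434 genes measured in all, 11.1% reached 2-fold towards the neurosphere and 18.7% towards VZ/SVZ. The median difference of the replication-dependent genes was -1.53, a 2.88-fold higher level in the neurosphere, while that of all genes was 0.04. Variant genes differed less, with 3 of 10 measured genes higher in the neurosphere, none higher in VZ/SVZ and a median of -0.33. Several histone genes are near-copies, so the 47 are not 47 separate measurements. The remaining 10 genes, 9 replication-dependent and 1 variant, did not rise well above background in any sample, namely Hist1h2ad, Hist1h2ae, Hist1h2al, Hist1h2bp, Hist1h3a, Hist1h4m, Hist2h2aa1, Hist2h2ab, Hist2h2bb and H1fnt.

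**Figure D1:**
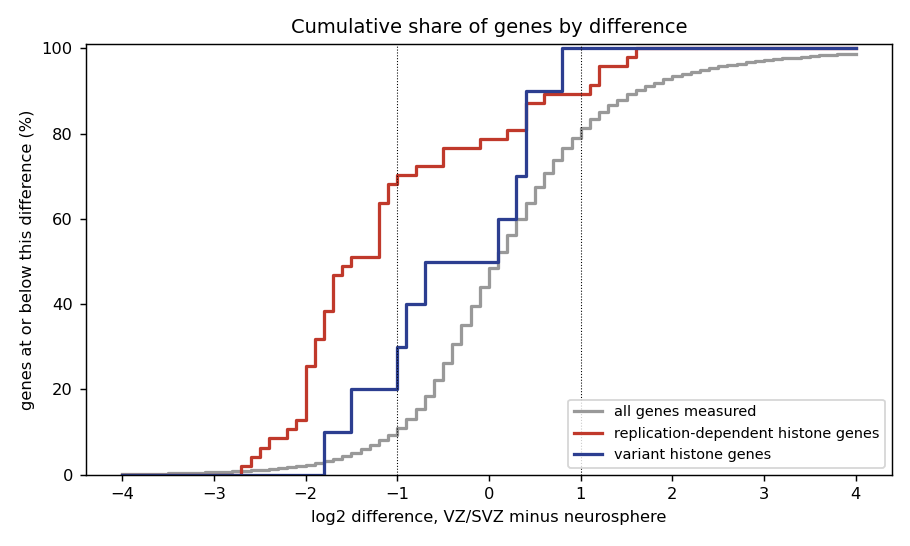
Cumulative percent of genes at or below each log2 difference (VZ/SVZ minus neurosphere), for all 26434 genes measured, 47 replication-dependent and 10 variant histone genes; dotted lines mark 2-fold. The replication-dependent curve lies to the left of that of all genes over most of its range, with its median at -1.53 against 0.04.

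The samples differed in more than their histones, and these values stand beside every result below. Of 25 DNA replication genes, 22 were higher in the neurosphere (median -1.58). All 5 fibroblast markers (Col1a1, Col3a1, Dcn, Lum, Pdgfra) were higher in VZ/SVZ, with a summed signal of 8521 there and 12.21 in the neurosphere, where none was well above background. Of 4 endothelial markers 3, and of 3 mural markers 2, were higher in VZ/SVZ. Summed signals there were 657.9 against 20.75 for endothelial and 6961 against 6770 for mural markers. The mural sums were mostly Acta2 (5741 in VZ/SVZ against 6756), whose probes ranged from -0.33 to 4.31. All 7 neural stem markers were bright on both arrays, and 4 of them (Nes, Sox2, Fabp7, Slc1a3) were higher in the neurosphere. The sum was 65700 there and 35320 in VZ/SVZ, and the probes of Slc1a3 ranged from -3.90 to 0.74. Of 4 ependymal markers, 3 were higher in the neurosphere (933.7 against 188.6 summed). Of 4 neuron markers measured, 3 were higher in VZ/SVZ (6380 against 5408 summed), and Rbfox3 was at background on both arrays. Snap25 made up most of the neuron sums, with 5421 in VZ/SVZ, 5391 in the neurosphere and probes from -0.45 to 2.49. Astrocyte markers (5 genes) pointed both ways, with 2 genes up in VZ/SVZ and 1 up in the neurosphere (2708 against 831.3 summed), as did the 5 neuroblast markers with 2 each (5224 against 12530). Of 5 oligodendrocyte markers 1, Olig2, was higher in the neurosphere (2452 in VZ/SVZ against 7795 summed). Of the microglia genes, Cx3cr1, P2ry12, C1qa and Tyrobp were at background in both samples, and the fifth, Aif1, had signals of 6.762 and 6.39. The part of these cell types, or of the share of dividing cells, in the histone differences was not tested. Fewer cells of a type and less RNA per cell cannot be told apart in such bulk samples.

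**Figure D2:**
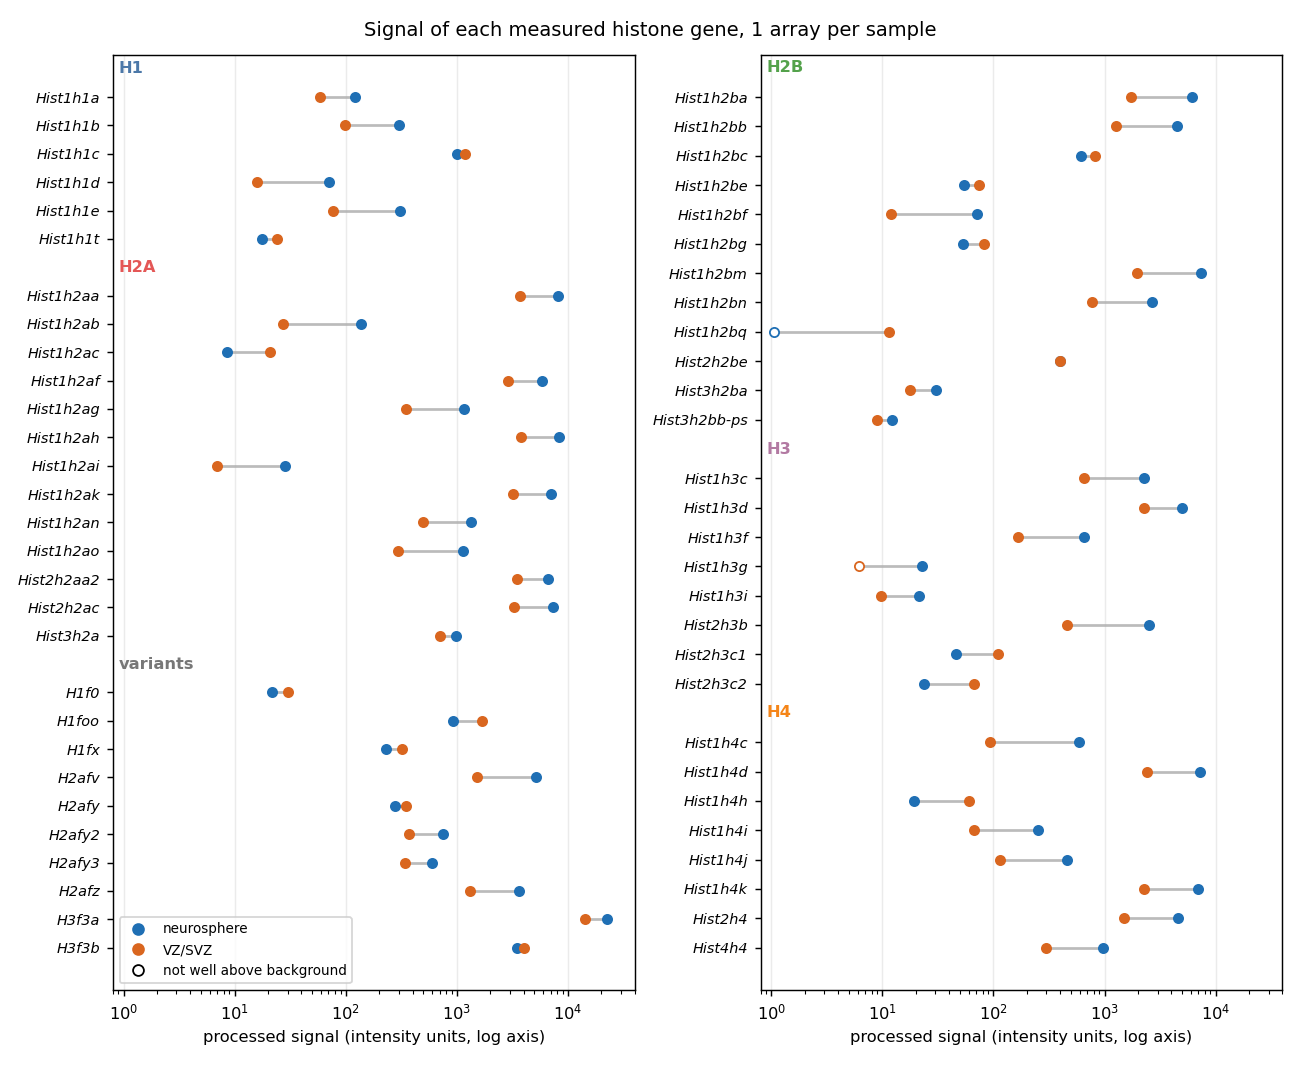
Processed signal of each of the 57 measured histone genes (log axis, intensity units) on the neurosphere array (blue) and the VZ/SVZ array (orange), by class; open circles are not well above background. In most H2A, H3 and H4 genes the blue point lies to the right, while Hist1h1c, Hist2h2be and H3f3b have both points close together; distances between genes carry no meaning because each has its own probe.

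The linker histones H1 compact the fibre of nucleosomes, and the 6 replication-dependent H1 genes all lie in the Hist1 cluster on chromosome 13. Of these, 4 were higher in the neurosphere and the other 2 lay within 2-fold (median -1.43). Hist1h1d had signals of 70.25 in the neurosphere and 15.94 in VZ/SVZ, a difference of -2.23 ± 0.24. Hist1h1e went from 306.5 to 76.9 (-2.09 ± 0.21), and Hist1h1b from 301.6 to 98.51 (-1.71 ± 0.20). Hist1h1a had the least difference of the 4, with 122.4 and 59.2 (-1.14 ± 0.21). With normexp Hist1h1d was at -0.84 and Hist1h1a at -0.72, both short of 2-fold. Hist1h1e and Hist1h1b were then at -1.55 and -1.28, and the class median was -0.78. Hist1h1c, the gene of H1.2, stood apart with 1004 in the neurosphere and 1180 in VZ/SVZ, a difference of 0.14 ± 0.20 that was within the technical error. Its second probe gave 37.34 and 44.22 (0.15). Hist1h1t, the testis H1, had low signals in both samples with 17.76 and 23.99 (0.34 ± 0.24).

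Genes of H2A, which pairs with H2B in the nucleosome, were higher in the neurosphere in 11 of 13 measured cases, with 1 higher in VZ/SVZ (median -1.24). Differences over 4-fold were found in Hist1h2ab (136.7 to 27.4, -2.41 ± 0.22), Hist1h2ai (28.63 to 6.94, -2.14 ± 0.34) and Hist1h2ao (1128 to 298.9, -2.01 ± 0.20). With normexp these were -1.25, -0.49 and -1.82, so that Hist1h2ai fell short of 2-fold. Hist1h2ag had signals of 1172 and 350.7 (-1.84 ± 0.20). The brightest H2A probes had smaller differences that lay close together. Hist1h2ah (8274 to 3798), Hist1h2ak (7100 to 3201), Hist2h2ac (7392 to 3269) and Hist2h2aa2 (6650 to 3520) differed by -1.22, -1.24, -1.27 and -1.01. Hist1h2af (5864 to 2915, -1.10) and Hist1h2an (1348 to 499.4, -1.53) complete the group whose probes are printed above. In VZ/SVZ the only H2A gene at least 2-fold higher was Hist1h2ac, with low signals of 8.48 and 20.78 (1.20 ± 0.30). Hist3h2a, from the small Hist3 cluster on chromosome 11, had 983.9 and 710.5 (-0.56 ± 0.20).

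H2B genes were mixed. Of 12 measured, 5 were higher in the neurosphere, 1 in VZ/SVZ and 6 within 2-fold (median -0.71). On the neurosphere side, Hist1h2bm had signals of 7387 and 1971 (-2.00 ± 0.20), Hist1h2bb 4490 and 1278 (-1.91 ± 0.20) and Hist1h2bn 2686 and 771.8 (-1.89 ± 0.20). Hist1h2bf, with 70.72 and 12.04, gave -2.65 ± 0.26, but -0.93 with normexp. A group of H2B genes did not share this pattern. Hist1h2bc had 615.1 in the neurosphere and 827.2 in VZ/SVZ (0.33 ± 0.20), Hist1h2be 53.88 and 74.63 (0.38 ± 0.21), and Hist1h2bg 53.66 and 82.85 (0.53 ± 0.21). The 2 probes of Hist2h2be read 400.9 and 393.7, and 365.9 and 360.7, both at -0.12. Hist1h2bq was not well above background in the neurosphere and had 11.43 in VZ/SVZ, at least 2.06-fold higher there (0.12 with normexp). Hist3h2ba (30.43 to 17.81, -0.87) and the pseudogene Hist3h2bb-ps (12.3 to 8.986, -0.55) had low signals and lay within 2-fold.

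H3 genes, whose products carry many of the modified tail residues of chromatin, were all beyond 2-fold in the processed signal, 6 towards the neurosphere and 2 towards VZ/SVZ (median -1.56). With normexp 4 of the 8 were, each towards the neurosphere (median -0.79). Hist2h3b went from 2494 in the neurosphere to 460.7 in VZ/SVZ (-2.53 ± 0.20). Hist1h3f (652.1 to 165.7, -2.07), Hist1h3c (2259 to 658.9, -1.87) and Hist1h3d (5026 to 2273, -1.24) lay the same way. Hist1h3g had 22.93 in the neurosphere and was not well above background in VZ/SVZ, at least 3.96-fold lower there (-0.38 with normexp). Hist1h3i had low signals of 21.3 and 9.786 (-1.22 ± 0.29). The opposite direction was seen in Hist2h3c2, with 23.81 and 67.42 (1.41 ± 0.22), and in Hist2h3c1, with 46.44 and 109.2 (1.14 ± 0.21). These 2 genes lie on chromosome 3 in the same Hist2 cluster as Hist2h3b.

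H4 genes, the class with the least protein diversity, were higher in the neurosphere in 7 of 8 measured cases (median -1.75). Hist1h4c had 588.5 in the neurosphere and 92.85 in VZ/SVZ (-2.76 ± 0.21, 6.77-fold). Hist1h4j (458.3 to 115.4, -2.08) and Hist1h4i (249.7 to 66.41, -2.01) followed. Hist1h4k (6899 to 2259), Hist2h4 (4612 to 1502) and Hist4h4 on chromosome 6 (960.8 to 296) differed by -1.71, -1.71 and -1.79. The exception was Hist1h4h, with 19.44 in the neurosphere and 60.56 in VZ/SVZ (1.55 ± 0.22). That probe, at chr13:23622937-23622996 in mm9, starts 24 bases into its transcript. By cluster, 28 of 36 measured genes of Hist1 and 4 of 7 of Hist2 were higher in the neurosphere, with medians of -1.71 and -1.01. In Hist3 0 of 3 were, and in Hist4 1 of 1, against 11.1% of all genes. The Hist2 genes not counted, Hist2h3c1, Hist2h3c2 and Hist2h2be, were read only by probes past the stem-loop, as described below. These counts therefore mix cluster and probe place.

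The array printed 10 spots of the Hist1h4d probe, which show the precision within an array. In the neurosphere the 10 spots ran from 6757 to 7887 with a median of 7214.5 (SD 0.066 on the log2 scale). In VZ/SVZ the 9 spots kept ran from 2337 to 2484 with a median of 2385 (SD 0.028), and 1 spot was left out as an outlier. The spots of the 2 samples did not overlap, and the difference was -1.70 ± 0.07. Spots on 1 array share an RNA sample and are not replicates of a condition. A second Hist1h4d probe, with 5164 and 1372, gave -2.01.

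**Figure D3:**
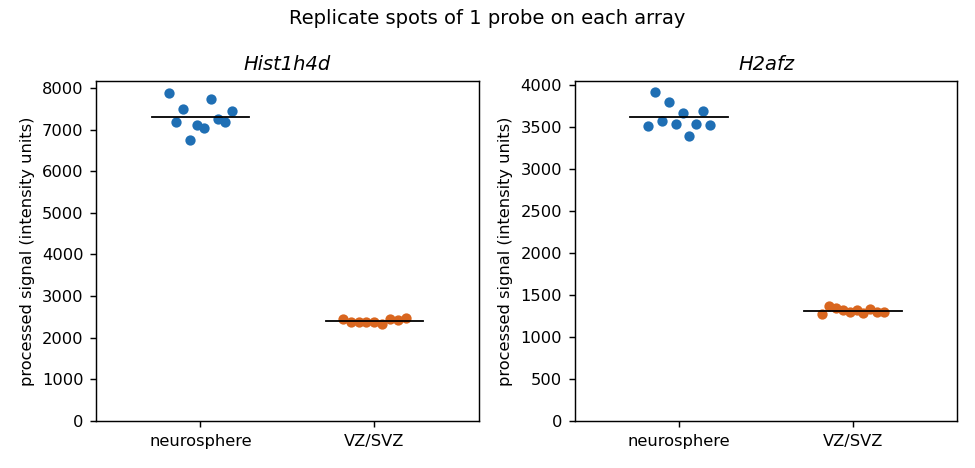
Processed signal (intensity units) of each replicate spot of the Hist1h4d probe (left) and the H2afz probe (right) on the 2 arrays; the line is the mean of the spots. Neurosphere spots lie at 6757 to 7887 and 3395 to 3914, and VZ/SVZ spots at 2337 to 2484 and 1275 to 1362, with no overlap.

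Most genes that went against their class shared a feature that the rule did not use, namely where their probes lie. This grouping was made after the values were seen. A stem-loop is visible in some of the probes, and 4 stretches of 24 bases are printed with the stem-loop in capitals, 2 from measured genes and 2 from genes at background.
Hist1h3i: aaaaGGCTCTTTTCAGAGCCccct
Hist1h2bf: caaaGGCTCTTTTCAGAGCCacct
Hist1h4m: taaaGGCCCTTTTCAGGGCCatcc
Hist2h2bb: aaaaGGCTCTTTTCAGAGCCactt
The motif GGCNCTTTT was found in 10 of 68 replication-dependent probes, in 0 of 20 variant probes and in 0.104% of all 56605 probes, and its other strand in none of the histone probes and 0.0989% of all. The motif CTTTTCAG, which overlaps it, was found in 8 of 68, in 0 of 20 and in 0.196% of all, and its other strand in none and 0.238%. A probe was taken to hold the stem-loop when GGCNCTTTT directly followed AAA or when CTTTTCAG was found, which left out the Hist1h1a probe with its match further upstream. The furthest stem-loop found in a transcript set a limit, at base 542 for core histones and 702 for H1. A probe was called downstream when it started at or past that limit without holding the stem-loop. Such a probe reads sequence that an mRNA ending at the stem-loop would not contain. For probes whose transcript shows no stem-loop the place is an estimate from this limit.

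Among 36 measured probes that start before the stem-loop, 32 were higher in the neurosphere and 1, that of Hist1h4h, was higher in VZ/SVZ (median -1.81). The 18 probes that stood in pairs of like probes were all among these, so the 36 are not separate measurements. Among 13 measured downstream probes, 5 were higher in VZ/SVZ, and 1 was higher in the neurosphere (median 0.38, from -1.01 to 1.41). Hist2h3c2 gave 2 of the 5, and with normexp no replication-dependent gene reached 2-fold towards VZ/SVZ. Over all probes of each kind, median signals in the neurosphere were 17.51 downstream and 1075.5 before the stem-loop. In VZ/SVZ they were 44.1 and 324.8. These medians come from different probes and genes, so the distance between them cannot be read as an amount of RNA. Over the 39705 probes measured in all, 18.3% reached 2-fold towards VZ/SVZ and 11.8% towards the neurosphere. The 6 measured probes that hold the stem-loop had 4 higher in the neurosphere and 2 within 2-fold (median -1.68). The downstream probes include those of Hist1h2ac, Hist1h2bq, Hist2h3c1 and Hist2h3c2, 4 of the 5 genes higher in VZ/SVZ, and those of Hist1h1c, Hist1h2bc, Hist1h2be, Hist1h2bg and Hist2h2be. The array's annotation listed no RefSeq gene for the downstream probes of Hist1h2ac, Hist2h3c1, Hist2h3c2, Hist1h1c and Hist1h2bg. It did list RefSeq genes for those of Hist1h2bq, Hist1h2bc, Hist1h2be and Hist2h2be. No H4 gene had such a probe. Within H2B, genes with a probe before the stem-loop had a median of -1.91 over 5 genes, and genes with a downstream probe 0.35 over 6 genes.

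A downstream probe and a probe before or at the stem-loop in 1 gene allow a comparison that does not rest on different genes. In Hist3h2a the probe before the stem-loop gave -0.56, and the downstream probe, with 188.2 and 248.9, gave 0.31. In Hist3h2ba the stem-loop probe gave -0.87, and the downstream probe was 11.21 in the neurosphere and not well above background in VZ/SVZ, at least 2.01-fold lower there. In Hist1h1c the stem-loop probe and the downstream probe were both near 0. In Hist1h1d and Hist1h2ai the downstream probe was at background on both arrays. The array's annotation listed no RefSeq gene for any of these downstream probes, that of Hist3h2a included. Of the 3 genes with both probes measured, only Hist3h2a had 1 that lies before the stem-loop, and only its probes differed clearly in sign. Whether the downstream probes read polyadenylated histone transcripts was not tested.

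**Figure D4:**
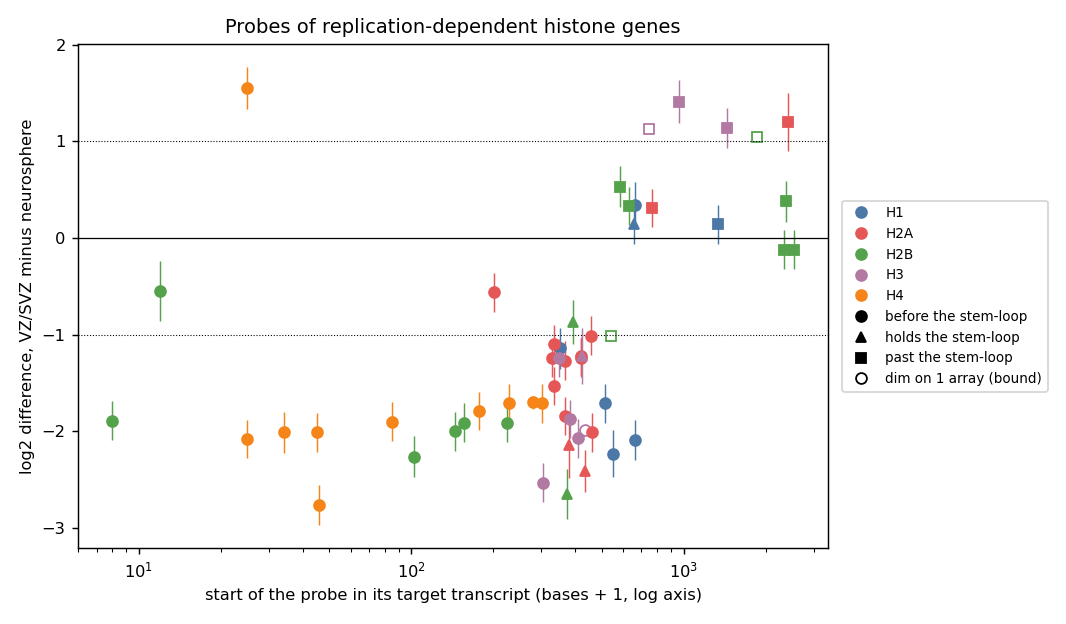
Log2 difference (VZ/SVZ minus neurosphere, bars show the technical error) of each measured replication-dependent probe against its start in the transcript (bases + 1, log axis); colour gives the class, shape the place relative to the stem-loop, and open symbols are bounds. Squares, past the stem-loop, lie between -1.01 and 1.41, and all circles but 2 lie below 0.

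A pair of genes named for the testis was bright in both samples, so their probes are shown beside the somatic relatives they most resemble, with capitals at bases that differ where the probes overlap. Hist1h2aa and Hist1h2ba encode the testis histones TH2A and TH2B.
Hist1h2aa: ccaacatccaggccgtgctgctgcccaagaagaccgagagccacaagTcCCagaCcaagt
Hist2h2ac: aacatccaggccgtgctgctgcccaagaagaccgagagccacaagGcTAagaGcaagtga
Hist1h2ba: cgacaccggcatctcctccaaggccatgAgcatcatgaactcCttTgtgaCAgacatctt
Hist1h2bb: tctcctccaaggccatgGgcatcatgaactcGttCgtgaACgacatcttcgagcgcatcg
The Hist1h2aa probe shares 54 of 58 overlapping bases with that of Hist2h2ac, and the Hist1h2ba probe 44 of 49 with that of Hist1h2bb. Hist1h2aa had signals of 8182 in the neurosphere and 3707 in VZ/SVZ (-1.24 ± 0.20), next to -1.27 in Hist2h2ac. Hist1h2ba had 6141 and 1739 (-1.91 ± 0.20), next to -1.91 in Hist1h2bb. Other male germ cell genes were low: Prm1 had 47.31 and 34.26, Prm2 18.45 and 24.3, and H1fnt was at background on both arrays. Tnp1 was at background in the neurosphere with 13.81 in VZ/SVZ. Cross-hybridisation to the somatic mRNAs was not tested. Without the testis genes and pseudogenes, 31 of 43 replication-dependent genes were higher in the neurosphere and the median was -1.70.

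The promoters of the histone classes carry different motifs, and 59 of the 67 genes had an entry among RefSeq's promoters (GRCm38.p6). In the 250 bases before the start, on both strands, CCAAT was found in 6 of 6 H1, 17 of 17 H2A, 11 of 11 H2B, 5 of 7 H3 and 2 of 8 H4 genes, in 5 of 10 variants and in 33.8% of all 32851 promoters. TATAAA was found in 4, 7, 7, 2 and 4 genes of these classes, in 1 variant and in 12.4% of all. The octamer ATTTGCAT was found in 7 H2A and 6 H2B genes, 1 variant and no H1, H3 or H4 gene, against 1.6% of all. The sequence AAACACA, known as the H1 box, was found in 5 of 6 H1, 2 of 17 H2A and 2 of 11 H2B genes, 1 variant and no H3 or H4 gene, against 6.25% of all. GGTCC was found in 8 of 8 H4 genes, 3 of 7 H3, 3 of 11 H2B, 3 of 17 H2A and 1 of 6 H1 genes, 6 of 10 variants and 39.8% of all. A match is a stretch of letters, not a bound site. The promoters of a bright H2B gene and of 2 H1 genes whose differences diverged, Hist1h1e at -2.09 and Hist1h1c at 0.14, are printed with the motifs of this search in capitals, at chr13:21721794-21722043 on the plus strand, chr13:23622559-23622808 on the minus strand and chr13:23738557-23738806 on the plus strand.
Hist1h2bm: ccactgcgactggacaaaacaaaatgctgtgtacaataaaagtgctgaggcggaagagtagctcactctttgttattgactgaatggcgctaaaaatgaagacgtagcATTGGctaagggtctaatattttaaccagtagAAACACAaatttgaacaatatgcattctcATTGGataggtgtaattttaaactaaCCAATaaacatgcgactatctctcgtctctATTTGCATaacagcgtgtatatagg
Hist1h1e: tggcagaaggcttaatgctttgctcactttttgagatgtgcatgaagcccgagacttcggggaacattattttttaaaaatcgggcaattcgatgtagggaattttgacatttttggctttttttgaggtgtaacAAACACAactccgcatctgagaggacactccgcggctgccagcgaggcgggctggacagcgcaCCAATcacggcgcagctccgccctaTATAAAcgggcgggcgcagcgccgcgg
Hist1h1c: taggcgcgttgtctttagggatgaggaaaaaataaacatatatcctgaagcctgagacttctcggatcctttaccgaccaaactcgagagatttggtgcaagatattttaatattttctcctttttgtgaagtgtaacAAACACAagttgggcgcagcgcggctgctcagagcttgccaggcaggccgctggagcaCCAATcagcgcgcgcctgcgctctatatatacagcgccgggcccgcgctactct
Both H1 promoters hold AAACACA and CCAAT at nearly the same distances, -115 and -52 in Hist1h1e and -112 and -54 in Hist1h1c. The exact TATAAA was found only in that of Hist1h1e.

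Variant histones fell into groups. The H2A.Z genes were higher in the neurosphere, and this H2A variant marks promoters and enhancers. H2afz, with 10 spots per array, ran from 3395 to 3914 in the neurosphere (median 3551.5) and from 1275 to 1362 in VZ/SVZ (median 1310.5), with no overlap (-1.55 ± 0.06). H2afv, the second H2A.Z gene, had 5146 and 1532 (-1.84 ± 0.20, 3.59-fold). Both stayed beyond 2-fold with normexp and with quantile normalization.

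H3.3 is the H3 variant deposited outside replication, and its 2 genes code for the same protein. H3f3a had 22720 in the neurosphere and 14280 in VZ/SVZ (-0.76 ± 0.20), and its 3 probes ranged from -1.14 to -0.30. H3f3b had 3523 and 4019 (0.10 ± 0.20), within the technical error. Neither gene reached 2-fold.

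The macroH2A genes encode H2A forms with a large additional domain. H2afy2 had 747.5 and 375.2 (-1.09 ± 0.20, but -0.97 with normexp and -0.88 with quantile normalization), and H2afy3 597.1 and 339.1 (-0.91 ± 0.20). H2afy had 276 and 347.3 (0.24 ± 0.20). That brightest H2afy probe lies on the opposite strand to the other 4 in the array's coordinates, and over all 5 probes the difference ranged from 0.10 to 1.85.

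Of the linker variants, 3 of 4 genes were measured and none reached 2-fold at its brightest probe. H1f0, the gene of H1.0, which accumulates in cells that have left the cycle, had low signals of 21.82 and 30.25 (0.38 ± 0.23). H1fx had 230.5 and 321.4 at its brightest probe (0.39 ± 0.20), which has no position and no RefSeq gene in the array's annotation. Its second probe, which has both, with 39.0 and 19.95, gave -1.06, so the direction depends on the probe. H1foo, the oocyte linker histone gene, had 934.7 in the neurosphere and 1684 in VZ/SVZ (0.76 ± 0.20, and 1.02 with quantile normalization).

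Genes that serve the histones moved to different degrees. DNA replication genes stood closest to the replication-dependent histones in their median. Examples are the DNA polymerase alpha gene Pola1 (187.7 to 42.03, -2.25 ± 0.21), the primase gene Prim1 (90.4 to 22.23, -2.12 ± 0.22) and the GINS complex gene Gins1 (183.9 to 46.77, -2.07 ± 0.21). With normexp these were -1.4, -0.92 and -1.24, so that Prim1 fell short of 2-fold. Tk1, the thymidine kinase of S phase, had 424.7 and 96.88 (-2.23 ± 0.21), but its probes ranged from -2.52 to 0.95. None of the 25 genes was higher in VZ/SVZ.

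Of 15 genes listed as replication-coupled histone chaperones, 6 were higher in the neurosphere (median -0.84), against 11.1% of all genes. With normexp 2 of the 15 were. Asf1b had 168.2 and 51.31 (-1.81 ± 0.21), and Chaf1b, a subunit of chromatin assembly factor 1, 161.4 and 71.83 (-1.26 ± 0.21, but -0.83 with normexp). Asf1a had 16.13 in the neurosphere and was not well above background in VZ/SVZ, at least 2.78-fold lower there (-0.28 with normexp). Hat1, which acetylates new H4, had 937.4 and 289.6 (-1.79 ± 0.20), with other probes up to 1.22.

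Of 21 genes for chaperones and exchangers of variant histones, 6 were higher in the neurosphere (median -0.32), against 11.1% of all genes. Dek had 2112 and 703.5 (-1.68 ± 0.20), Hjurp, the chaperone of the centromeric H3, 822.8 and 297.5 (-1.56 ± 0.20), and Znhit1, a subunit of the complex that inserts H2A.Z, 662.9 and 299.1 (-1.24 ± 0.20). Among genes outside the rule, H2afx (1166 to 274.3, -2.18 ± 0.20) and the centromeric H3 gene Cenpa (331 to 101.8, -1.80 ± 0.20) were higher in the neurosphere. H2afj (8876 to 5341, -0.83 ± 0.20) and H2afb2 (16.19 to 14.97, -0.21 ± 0.25) were within 2-fold.

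Of the genes that transcribe, process and degrade histone mRNA, 19 of 21 were measured. Of these, 3 were higher in the neurosphere and 16 within 2-fold (median -0.30), a share near the 11.1% of all genes; with normexp 1 of 19 was. Slbp, which binds the stem-loop, had 243.7 and 221.6 (-0.23 ± 0.20), with other probes from -0.35 to 1.19, and Npat, a coactivator of histone transcription, 216.8 and 139.3 (-0.73 ± 0.20). The 3 genes were Eri1, an exonuclease that trims histone mRNA ends (340.9 to 97.48, -1.90 ± 0.21), Srrt (55.05 to 24.86, -1.24 ± 0.22) and Lsm11, a protein of the U7 particle that cuts histone pre-mRNA. Lsm11 had 22.71 in the neurosphere and was not well above background in VZ/SVZ, at least 4.09-fold lower there (-0.37 with normexp). Srrt was at -0.54 with normexp. Cstf2 had 63.33 and 40.46 (-0.74 ± 0.21).

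**Figure D5:**
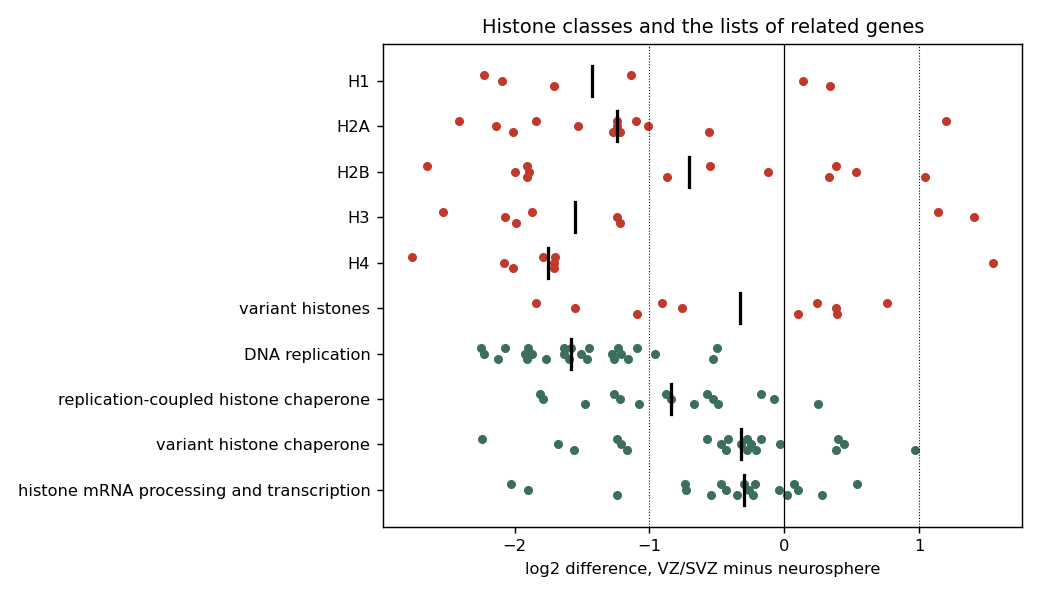
Log2 difference (VZ/SVZ minus neurosphere) of each measured gene of the histone classes (red) and of 4 lists of related genes (green); black bars are medians and dotted lines 2-fold. Medians are -1.75 for H4 and -1.58 for DNA replication, against -0.30 for histone mRNA processing and transcription.

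The differences of genes with low signals depended on the background correction. With normexp, 26 of 47 replication-dependent genes were higher in the neurosphere, and none of the 47 was higher in VZ/SVZ. Under it the 5 genes higher in VZ/SVZ stood at 0.57 for Hist1h4h, 0.59 for Hist2h3c2, 0.65 for Hist2h3c1, 0.17 for Hist1h2ac and 0.12 for Hist1h2bq, all still above 0. Under quantile normalization Hist1h2ac (0.75) and Hist1h2bq (0.48) also fell short of 2-fold. The count of genes higher in the neurosphere was 2 of 6 in H1 with normexp and 7 of 13 in H2A with quantile normalization, against 4 and 11 above.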

How the data were processed

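Per the labels, Cy3-labelled cRNA of total RNA from 2 samples was read on Agilent one-colour arrays. Both arrays lie on 1 slide and 1 scan. The deposited scanner files hold intensity values made with Agilent Feature Extraction 11.5.1.1, per the file headers, while version 9.1 stands in the submitters' processing notes. That signal is an intensity already background-subtracted, per the file headers. The value table deposited by the authors gave equal intensities on a linear scale, with a median ratio of 1.0, column medians of 12.95 and 18.55, and no centring or scaling between arrays.

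Of 62976 spots, 3671 control spots and the spots marked as outliers (79 and 142) were left out, and replicate spots were averaged on the log2 scale. Levels were log2 signals minus the array's 75th percentile of probes. A gene took its brightest probe among those well above background on at least 1 array. Names were matched to RefSeq (GRCm38.p6), 69 of the 88 histone probes by accession, and the array's histone names were kept. Probe coordinates are mm9, per the file headers. Promoter sequences and their coordinates are those of RefSeq GRCm38.p6. Motifs were searched on both strands. Python 3.11.15, pandas 2.3.3 and limma 3.58.1 in R 4.3.3 were used, and the steps were tested on simulated data.

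Groups came from the sample titles. With 1 array each, no test was made. Genes named were every measured variant, and in each class up to 4 with the highest mean level, up to 4 with the largest difference among genes bright on both arrays, up to 4 with the largest bound and any that opposed the class median by 2-fold or more. Of each list up to 4 with the largest difference, and any opposing it, were named. Hist1h1t, Hist1h2af, Hist1h2ak, Hist1h2an, Hist1h2bc, Hist1h2be, Hist1h2bg, Hist1h3i, Hist2h2be, the Hist3 genes, Slbp, Npat and the genes at background were named outside that rule, after their values were seen. The values of 1 gene named by the rule are not reported here. The members and lists were chosen with earlier results of these data known. The listed symbol Symplk, a misspelling of Sympk, matched no probe, so Sympk was not examined. Zfp473 was at background, H2afb1 and H2afb3 matched no probe, and Hils1, H2al1m, H2al2a and H2bfm were at background. Alternatives were normexp with an offset of 50, quantile normalization, scaling to the median of bright probes, the deposited table, outlier spots kept, other filters on dim probes and the median over a gene's probes. Those added after seeing the data left out testis genes and pseudogenes, or kept only probes before or past the stem-loop.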

Additional observations from a re-analysis of the deposited data

How the results depend on the processing

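Replication-dependent genes at least 2-fold higher in the neurosphere numbered 26 to 34 over the 8 alternatives not added later, and the median of these genes kept its sign in each. With normexp the count higher in VZ/SVZ fell to 0, their median moved to -1.21, and 1470 of all genes were higher in VZ/SVZ, with 1268 higher in the neurosphere. Quantile normalization gave 3 replication-dependent genes and 1 variant (H1foo, 1.02) higher in VZ/SVZ. With no filter on dim probes the medians were -1.24 for replication-dependent genes and -0.76 for variants, and 7671 genes were higher in VZ/SVZ. With only probes bright on both arrays 3172 genes were. The median over a gene's probes moved the variant median to -0.55 and H1fx from 0.39 to -0.34. With only probes before the stem-loop 1 replication-dependent gene was higher in VZ/SVZ. With only downstream probes 1 of 11 was higher in the neurosphere, and the median reversed to 0.38; this alternative keeps other probes and fewer genes by its construction. Toward VZ/SVZ went 62.8% of all calls, against 53.7% with normexp, 51.9% with quantile normalization and 55.6% with only probes bright on both arrays. The H2B median was -0.23 with normexp and -1.14 with quantile normalization. DNA replication genes higher in the neurosphere fell to 15 of 25, replication-coupled chaperones to 2 of 15 and mRNA processing genes to 1 of 19 with normexp. Of the 65 genes named by rule, 32 moved by more than their technical error with normexp, 34 with quantile normalization, 6 with the median over probes and 1 with no filter. The cause of these changes was not tested. Signal over background limits genes near the lowest signals of 5.2 and 5.93. No paired analysis was possible because each group has 1 array.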
